A study of Mus musculus with 18 samples.

Results

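The differential m6A peaks that lie in the first intron of a gene were examined in the mouse uterus. Members were the rows of the 4 deposited peak tables whose annotation names intron 1 of an NM_ or XM_ transcript of RefSeq, and the gene named with that transcript was taken as the host. They were 1219 of 40929 peaks, in 733 host genes. The tables are called LPS up and LPS down, for peaks higher or lower under LPS than under Veh, and Mel+LPS up and Mel+LPS down, for peaks higher or lower under Mel+LPS than under LPS. Members were 405 of 12023 LPS up peaks, 224 of 6259 LPS down peaks, 197 of 13436 Mel+LPS up peaks and 393 of 9211 Mel+LPS down peaks. LPS down is complete for chromosomes 1 to 9 and was restricted to them, so 11 further members on chromosome 10 were left out. The tissue was the uterus of wild-type ICR females, bought at 8 weeks of age, on day 5 of pregnancy. Veh mice received 0.9% saline intraperitoneally on days 1 to 4. LPS mice received the same saline and, 30 min later on days 3 and 4, lipopolysaccharide, a bacterial cell wall component, at 0.5 mg/kg. Mel+LPS mice received melatonin at 10 mg/kg in place of the saline, and the same LPS. The melatonin was dissolved in saline with 3% ethanol, and whether the saline of the other groups held ethanol is not given in the sources used here. Each treatment had 3 input libraries and 3 libraries immunoprecipitated with an m6A antibody, 18 libraries in all, and the labels do not say how many mice stand behind a library. Each peak has 1 score per comparison and none per library, so the lists of up and down peaks are given as deposited, without replicate error, and no test between treatments was possible. Read depth is unknown from these tables. They hold no expression values, so the labelled tissue could not be checked against its markers, and in whole uterus fewer cells of a type and less RNA per cell cannot be told apart.

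N6-methyladenosine (m6A) is a methyl mark on adenosine, set by the METTL3-METTL14 complex mostly at the motif DRACH, in which A, G or T and then A or G precede AC, followed by A, C or T. In m6A-seq, RNA is fragmented, the methylated fragments are pulled down with an antibody, and places with more pulled-down than input reads are called as peaks. The mark is best known in mature mRNA, around the stop codon and in long exons. Introns are removed while the RNA is being made, so an intron peak can come from RNA that still holds the intron, from an exon that the annotation lacks, or from another transcript at the same place. The first intron follows exon 1, is usually the longest intron of a gene and often holds regulatory elements.

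The letters of a peak could be read for the 91 members that lie wholly inside an exon of another transcript in GENCODE release M21. Of these, 10 are shown as examples of the sequence under the peaks, picked from the higher-scoring members of each table. The choice was among peaks of at most 300 bases on non-coding transcripts and did not follow rank alone. In Mel+LPS up, Lig1 (score 6.89) outranked U2surp and was not printed. Nor was Colec12 (9.86) of that table, whose peak centre lies on a non-coding exon. Sequences are from the GENCODE transcripts of GRCm38, 5′ to 3′ on the strand of the host gene, with each DRACH match in capitals. The score given with each, and throughout, is taken as the log10 likelihood ratio of the difference between treatments. LPS up peaks were read in Sh3bp4, an endocytic adaptor gene (chr1:89098547-89098781, + strand, score 12.7, 27949 bases past exon 1), and in Zfp146, a zinc finger gene (chr7:30169495-30169650, - strand, score 5.55, 8 bases past exon 1).
Sh3bp4, LPS up: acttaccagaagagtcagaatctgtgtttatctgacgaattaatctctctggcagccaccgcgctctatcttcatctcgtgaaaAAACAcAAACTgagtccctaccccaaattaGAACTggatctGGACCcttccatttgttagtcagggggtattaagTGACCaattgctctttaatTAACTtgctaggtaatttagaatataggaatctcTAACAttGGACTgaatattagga
Zfp146, LPS up: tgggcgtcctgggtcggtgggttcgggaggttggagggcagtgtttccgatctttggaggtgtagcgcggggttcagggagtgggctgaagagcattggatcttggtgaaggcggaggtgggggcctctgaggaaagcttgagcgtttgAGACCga
The LPS down peaks were in Apbb2, which encodes a binding partner of the amyloid precursor protein (chr5:66593377-66593561, - strand, score 8.11), and in Cfap45, a cilium gene (chr1:172523732-172523855, + strand, score 4.24).
Apbb2, LPS down: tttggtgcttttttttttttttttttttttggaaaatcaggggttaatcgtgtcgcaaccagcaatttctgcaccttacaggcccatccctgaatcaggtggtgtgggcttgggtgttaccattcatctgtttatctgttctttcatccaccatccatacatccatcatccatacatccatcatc
Cfap45, LPS down: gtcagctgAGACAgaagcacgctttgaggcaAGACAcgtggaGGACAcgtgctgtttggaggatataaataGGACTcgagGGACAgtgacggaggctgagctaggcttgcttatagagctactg
The Mel+LPS up peaks were in Ripor2 (chr13:24597396-24597541, + strand, score 10.4), in Eci2, a gene of fatty acid oxidation (chr13:35007527-35007667, - strand, score 8.39), and in U2surp, a gene of the U2 spliceosome (chr9:95511653-95511785, - strand, score 5.62, 31 bases past exon 1).
Ripor2, Mel+LPS up: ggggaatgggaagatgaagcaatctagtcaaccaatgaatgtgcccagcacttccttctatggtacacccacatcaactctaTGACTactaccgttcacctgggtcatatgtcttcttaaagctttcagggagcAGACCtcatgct
Eci2, Mel+LPS up: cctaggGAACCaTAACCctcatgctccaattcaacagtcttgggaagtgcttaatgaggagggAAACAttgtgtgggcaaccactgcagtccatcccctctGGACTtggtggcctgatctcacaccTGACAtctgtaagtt
U2surp, Mel+LPS up: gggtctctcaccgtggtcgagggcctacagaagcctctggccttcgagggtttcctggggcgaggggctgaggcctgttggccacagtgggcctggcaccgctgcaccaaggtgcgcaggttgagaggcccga
The Mel+LPS down peaks were in Cdk8, a kinase gene of the Mediator complex (chr5:146248685-146248883, + strand, score 7.58), in Mcu, the mitochondrial calcium channel gene (chr10:59602889-59603057, - strand, score 5.98), and in Cfap45 again (chr1:172523532-172523731, + strand, score 5.45). This Cfap45 peak ends at the base before the Cfap45 peak printed above, which belongs to LPS down.
Cdk8, Mel+LPS down: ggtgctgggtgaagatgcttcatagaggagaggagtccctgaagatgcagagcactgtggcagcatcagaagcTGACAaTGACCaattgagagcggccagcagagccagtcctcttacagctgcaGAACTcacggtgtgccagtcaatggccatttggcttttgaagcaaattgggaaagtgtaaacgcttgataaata
Mcu, Mel+LPS down: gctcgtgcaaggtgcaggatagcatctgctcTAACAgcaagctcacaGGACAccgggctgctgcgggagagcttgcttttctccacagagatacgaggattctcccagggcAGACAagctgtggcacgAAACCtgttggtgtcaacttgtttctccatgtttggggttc
Cfap45, Mel+LPS down: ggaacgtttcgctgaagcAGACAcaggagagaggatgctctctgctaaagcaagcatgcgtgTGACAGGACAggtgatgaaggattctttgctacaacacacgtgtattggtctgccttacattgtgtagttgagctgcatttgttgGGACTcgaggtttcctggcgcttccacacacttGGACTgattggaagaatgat
The Apbb2 and U2surp peaks held no DRACH match, the Zfp146 peak held 1, and the Sh3bp4 peak held 8. The 2 Cfap45 peaks, which adjoin in 1 retained intron, held 5 matches each, 3 of them with the core GGAC. The transcript that covers the Ripor2 peak, of Gm11346, runs on the opposite strand, so the 2 matches printed for Ripor2 are not in that transcript. The transcripts of the other 9 run on the strand of the host, a count that depends on which peaks were printed. The transcript over the Lig1 peak, which is not printed, runs opposite to its host.

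In LPS vs Veh, first-intron peaks were as often up as down. Of 449 members on chromosomes 1 to 9, 225 were up and 224 down, a share of 50.1% up (Wilson 95% interval 45.5 to 54.7, counting error only, as for all intervals here). Among all 12479 differential peaks of these chromosomes the share was 49.8%. In Mel+LPS vs LPS, 197 of 590 members were up, 33.4% (29.7 to 37.3), where the share was 59.3% among all 22647 differential peaks and 49.1% (47.1 to 51.1) among the 2374 peaks in later introns. Exon peaks of the same comparison were listed as up in 74.2% (73.3 to 75.04) and distal intergenic peaks in 27.4% (25.5 to 29.3). The interval of the first introns overlapped that of none of the other classes plotted, and lay nearest to the intergenic peaks. No test was possible, since the tables hold no replicate values, and peaks are not replicates of a treatment.

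**Figure D1:**
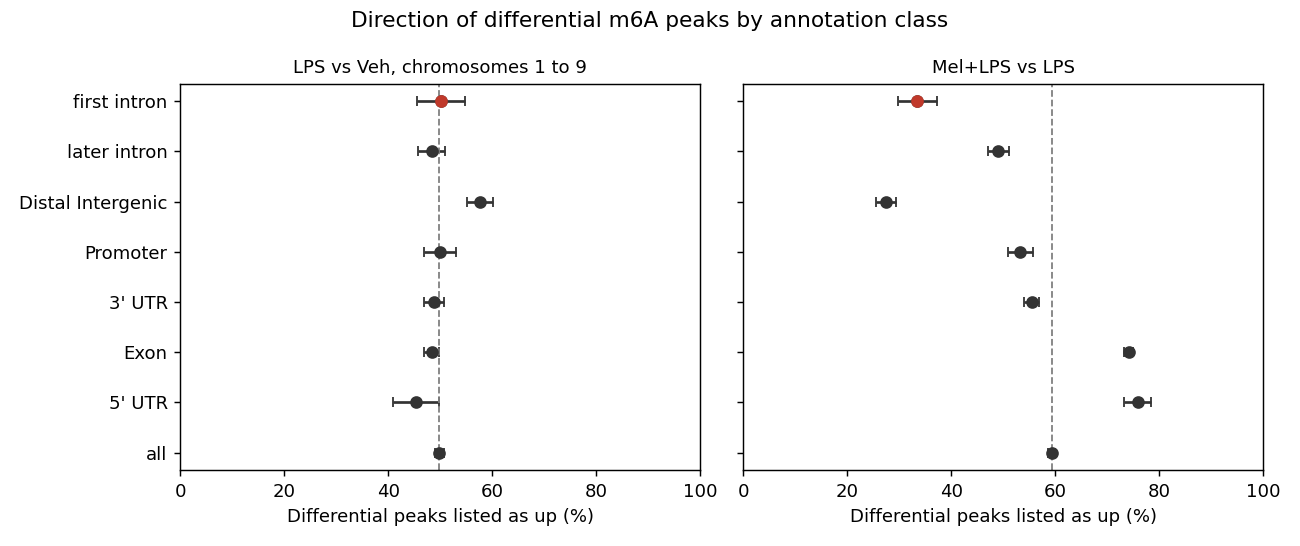
Percentage of differential peaks listed as up (x axis) for each annotation class (y axis) in LPS vs Veh on chromosomes 1 to 9 (left) and Mel+LPS vs LPS (right), with Wilson 95% intervals as bars, first introns in red and the share of all peaks as a dashed line. First introns sit at 50.1% on the left, on the line, and at 33.4% on the right, below the line at 59.3%.

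First introns held 3.37% (3.06 to 3.71) of LPS up peaks, 3.58% (3.15 to 4.07) of LPS down peaks, 1.47% (1.28 to 1.68) of Mel+LPS up peaks and 4.27% (3.87 to 4.70) of Mel+LPS down peaks. Among peaks in introns of NM_ or XM_ transcripts, the first intron took 23.3% and 23.3% in the LPS vs Veh tables, 14.5% in the Mel+LPS up table and 24.5% in the Mel+LPS down table. In GENCODE, with the transcript of longest span per protein-coding gene, first introns made up 10.9% of the introns and held 27.3% of the intron bases. Intron peaks that could be placed on a GENCODE intron were split at 200 bases past the upstream exon. Of the farther ones, 28.7%, 31.8%, 27.1% and 27.5% lay in first introns in LPS up, LPS down, Mel+LPS up and Mel+LPS down. Of the nearer ones, 5.4% to 7.4% did so by table.

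The position of the peak in the intron differed between the tables. A GENCODE first intron of the host was found around the centre of 1020 members, and 132 of them began less than 200 bases past the end of exon 1. In the Mel+LPS up table these were 69 of 156 placed members, 44.2% (36.7 to 52.1). They were 26 of 334 in the LPS up table, 7.78% (5.37 to 11.2), 20 of 197 in the LPS down table, 10.2% (6.67 to 15.2), and 17 of 333 in the Mel+LPS down table, 5.11% (3.21 to 8.02). The interval of the Mel+LPS up table overlapped none of the other 3. Most of these peaks lay very close to the exon: 62 of the 69 began within 50 bases, and their median distance was 17 bases (95% interval of the median 12 to 24). One of them, in Crcp, overlapped the GENCODE exon 1. A peak that touches an exon of its own RefSeq transcript was classed as an exon peak in the deposited annotation, so members begin past the exon edge by construction.

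**Figure D2:**
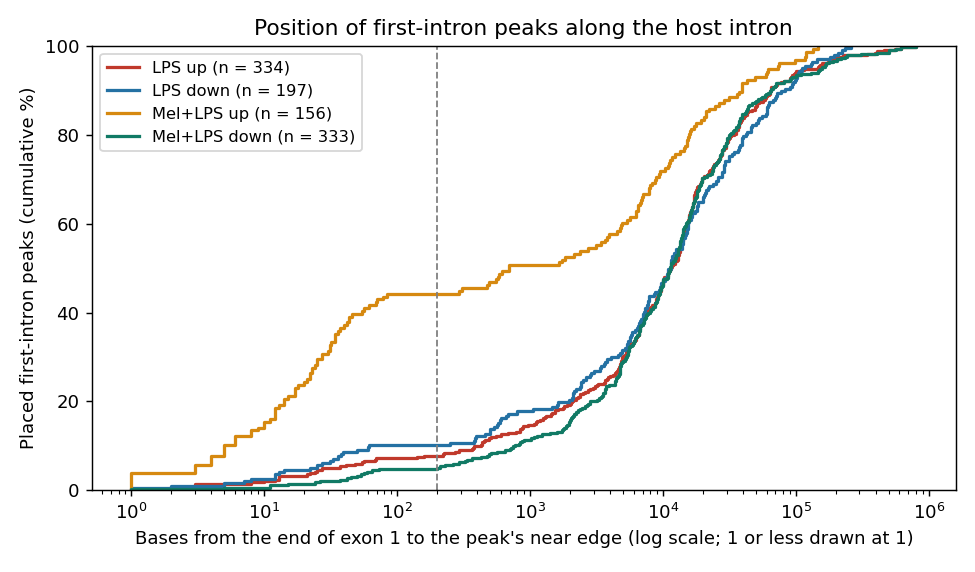
Cumulative percentage of placed first-intron peaks (y axis) against the bases between the end of exon 1 and the near edge of the peak (x axis, log scale), 1 line per table, with the 200-base limit dashed. The Mel+LPS up line reaches 44.2% at the limit, and the other 3 lie between 5.11% and 10.2% there.

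The other end of the intron showed no such pile of peaks. Peaks ending less than 200 bases before exon 2 were 7 of 156 in the Mel+LPS up table and 2 in each of the other tables. Away from exon 1 the members were spread along the intron. Among members at least 200 bases past exon 1, with the intron cut into 5 equal parts, each of the first 4 parts held 20.3% to 24.9% of the LPS down members, and the last part, next to exon 2, held 11.9%. The last part also held the smallest share in the other tables, 13.3% in LPS up, 12.03% in Mel+LPS down and 8.05% in Mel+LPS up. The median distance of all placed members from exon 1 was 11494 bases in LPS up (9352 to 13759), 11393 in LPS down (7832 to 14631) and 11304 in Mel+LPS down (9478 to 13462), against 693 in Mel+LPS up (69 to 4533). The members beyond 200 bases in the Mel+LPS up table had a median distance of 10301 bases (6987 to 15115), an interval that overlapped those of the other tables, whose medians were 12516 to 13963 bases there.

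The near-exon share of members was higher for hosts on the minus strand in each table, with intervals that overlap in all but Mel+LPS down. In the Mel+LPS up table, 29 of 73 members of plus-strand hosts (39.7%, 29.3 to 51.2) and 40 of 83 of minus-strand hosts (48.2%, 37.8 to 58.8) were within 200 bases of exon 1. The share was higher on the minus strand in the other tables too, with 14 of 155 (9.03%, 5.46 to 14.6) against 3 of 178 (1.69%, 0.575 to 4.84) in Mel+LPS down, where the intervals do not overlap. Later introns had a higher minus-strand share in each table, with intervals apart. It was 47.3% (43.6 to 51.1) against 24.7% (21.2 to 28.6) in LPS up. In Mel+LPS down it was 35.1% (31.4 to 39.0) against 14.5% (11.7 to 17.7). The part of strand in the position of the peaks was not tested.

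Direction in Mel+LPS vs LPS went with distance from exon 1. Of the 86 members within 200 bases of exon 1, 69 were up, 80.2% (70.6 to 87.3). Of the 403 farther members, 87 were up, 21.6% (17.9 to 25.9). Peaks in later introns had nearly the same values, with 75.2% (72.6 to 77.6) of 1149 peaks up within 200 bases of the upstream exon and 21.9% (19.6 to 24.5) of 1066 farther peaks. The share of peaks in each class differed between first and later introns. Of placed members, 17.6% (14.5 to 21.2) lay within 200 bases of the upstream exon, against 51.9% (49.8 to 54.0) of placed later-intron peaks. With the 2 distance classes weighted as in later introns, the share up among members would be 52.0%, against 49.6% of the placed later-intron peaks and 31.9% of the placed members as counted. This weighting was chosen after the values were seen and leaves out members without a placed intron. The part of distance in the share up was not tested. In LPS vs Veh the near members were up in 15 of 35 (42.9%, 28.0 to 59.1) and the farther ones in 171 of 348 (49.1%, 43.9 to 54.4), and these intervals overlap. In later introns the shares were 42.4% (38.4 to 46.4) of 583 near peaks and 52.7% (49.2 to 56.1) of 801 farther peaks, which lie in the same order with intervals that do not overlap.

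**Figure D3:**
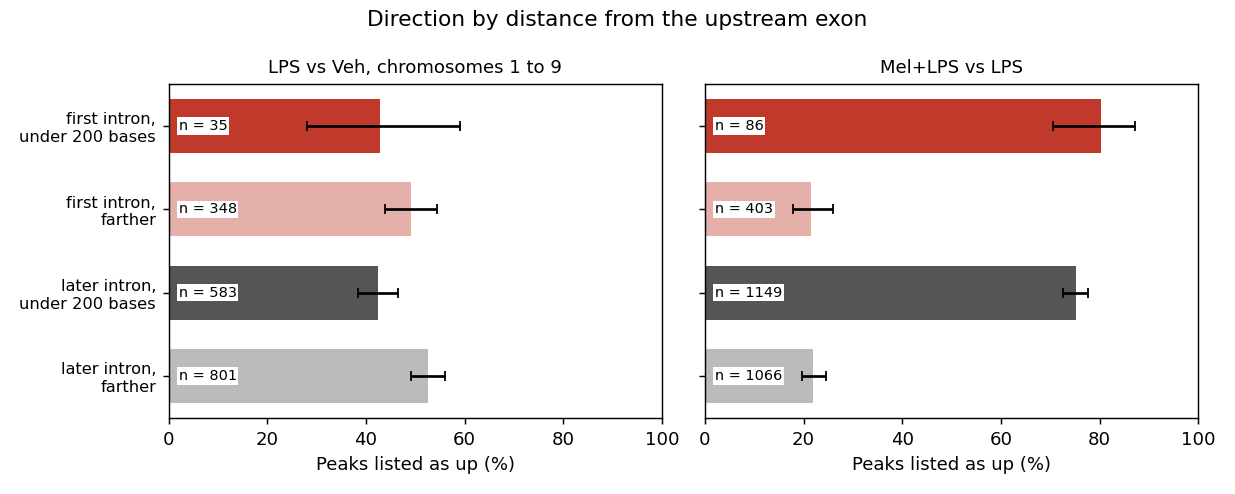
Percentage of peaks listed as up (x axis) in first introns (red) and later introns (gray), split at 200 bases from the upstream exon, in LPS vs Veh on chromosomes 1 to 9 (left) and Mel+LPS vs LPS (right), with Wilson 95% intervals and the number of peaks. On the right the near bars stand at 80.2% and 75.2% and the far bars at 21.6% and 21.9%, whereas on the left all 4 lie between 42.4% and 52.7%.

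The hosts of the near-exon Mel+LPS up peaks began with Tdo2, the tryptophan-degrading dioxygenase known as a decidual gene. Its peak scored 30.9, the highest among the first-intron peaks of the table. It is 128 bases wide at chr3:81975526-81975653, begins 5 bases past exon 1 and fills much of a first intron of 229 bases. Next came Ano1, a calcium-activated chloride channel (9.90, 17 bases past exon 1), and Map2k4, a kinase that activates JNK (9.72, 15 bases). Ube2e2, a ubiquitin-conjugating enzyme, followed at 7.49, and Dusp4, a phosphatase of MAP kinases, at 7.29. The cell cycle genes Birc5 (3.53), Cdk7 (1.86) and Cdk1 (1.30) were also among the 69, as were Pigr, the epithelial immunoglobulin transporter (3.21), Tradd, the adaptor of the TNF receptor (1.82), and Col5a2, a fibrillar collagen (1.26). These genes were picked from the 69 after their values were seen. Near-exon members of this table had lower scores than the farther ones, with a median of 1.97 (1.67 to 2.83) against 5.42 (5.42 to 5.46), and 25 of the 69 reached a score of 3.

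Near-exon members of the other tables were fewer. In LPS up, Rev1, a translesion DNA polymerase, stood first at 8.49, 13 bases past exon 1, and the same place was in Mel+LPS down at 8.62. Tnfaip3, the inhibitor of NF-κB signaling known as A20, had a near-exon peak in LPS up with a score of 6.19, 10 bases past exon 1. Il1a, the cytokine interleukin 1 alpha, had one in LPS down with a score of 3.63, 50 bases past exon 1. The highest near-exon score of the LPS down table was 5.81, in Lin54, a cell cycle regulator.

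The ends of exon 1 were compared for the motif. Of first exons with at least 100 bases, DRACH occurred in the last 100 bases in 42 of 53 hosts of near-exon Mel+LPS up peaks (79.2%, 66.5 to 88.0) and in 51 of 64 hosts of the farther peaks (79.7%, 68.3 to 87.7). It occurred in 79.5% of 39494 first exons of protein-coding GENCODE transcripts, so the motif was as common there as in any first exon. The core GGAC occurred in 34 of the 53 (64.2%, 50.7 to 75.7), in 30 of the 64 (46.9%, 35.2 to 58.9) and in 44.9% of all, and the intervals of the 2 groups of hosts overlap. In the LPS up table GGAC occurred in 7 of 17 near hosts (41.2%, 21.6 to 64.0).

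The 91 members inside a GENCODE exon gave the motif content of the peaks themselves. In the 90 of them with a host strand, DRACH occurred 380 times in 16148 bases, 23.5 per kilobase, against 19.9 per kilobase in the rest of the same exons, a ratio of 1.18 (exact binomial 95% interval 1.06 to 1.31). By table the ratio was 1.40 (1.14 to 1.72) in Mel+LPS down, 1.22 (0.962 to 1.52) in LPS down, 1.14 (0.896 to 1.42) in Mel+LPS up and 1 (0.802 to 1.24) in LPS up. The pooled ratio was 0.914 (0.811 to 1.03) on the opposite strand and 1.04 (0.913 to 1.18) when the peaks were placed 100 bases upstream. In 16 of the 90 the covering transcript runs on the strand opposite to the host, and without these the pooled ratio was 1.26 (1.12 to 1.42), a choice made after the values were seen. At a score of at least 3, with 49 members, it was 1.10 (0.935 to 1.28), and in Mel+LPS down 1.29 (0.953 to 1.71), so both intervals then include 1. Some of these members lie at the same place in 2 tables, and matches in 1 peak are not independent. Of the 90, 93.3% held a DRACH and 44.4% a GGAC, beside 96.3% and 45.4% of 383454 windows of 169 bases in GENCODE transcripts of the same non-coding types.

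The centre of 106 of the 1185 members on chromosomes lay on an exon of another GENCODE transcript. The share was 14.5% (10.2 to 20.3) in Mel+LPS up, 11.2% (7.68 to 16.0) in LPS down, 7.25% (5.07 to 10.3) in Mel+LPS down and 6.68% (4.60 to 9.61) in LPS up. Of the 106, 63 lay on a transcript of the host gene and 43 on another gene only. The exon belonged to a retained intron transcript in 30, to a processed transcript in 28 and to a protein-coding transcript in 22, and 1 peak could touch several kinds. The U2surp and Zfp146 peaks printed above lie on retained intron transcripts of their hosts, and the Sh3bp4 and Apbb2 peaks lie on single-exon genes inside the host intron.

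The scores showed repeated values. The most frequent score of the LPS up table, 3.78, was carried by 134 of 405 members (33.1%, 28.7 to 37.8) and by 12.1% of all peaks of that table. The LPS down table had 3.63 in 72 of 224 members (32.1%, 26.4 to 38.5), the Mel+LPS down table had 3.85 in 115 of 393 (29.3%, 24.98 to 33.9), and the Mel+LPS up table had 5.42 in 22 of 197 (11.2%, 7.49 to 16.3). Later introns had a like share in the Mel+LPS down table, 28.3% (25.8 to 30.9). Their share was 25.6% (23.35 to 28.03) in LPS up, an interval below that of the members. It was 23.5% (20.6 to 26.7) in LPS down and 8.93% (7.42 to 10.7) in Mel+LPS up, with intervals that overlap those of the members. Exon peaks carried the repeated score in 2.09% to 9.19% by table. These peaks cannot be ranked among themselves. Other scores repeated as well, such as 6.19 in LPS up and 6.29 in Mel+LPS down. The median score of the members was the most frequent score in 3 tables, and 3.38 (2.83 to 4.34) in Mel+LPS up. Later introns had the same medians as the members in those 3 tables. Their median was 2.80 (2.61 to 3.04) in Mel+LPS up, an interval that overlaps that of the members. All peaks of the 4 tables had medians of 2.88, 2.65, 2.17 and 3.09 in the order LPS up, LPS down, Mel+LPS up and Mel+LPS down. Scores of at least 10 were held by 15, 10, 8 and 12 members in that order. Median widths were 170, 164.5, 138 and 167 bases, and 52 of the 393 Mel+LPS down members were exactly 200 bases wide.

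**Figure D4:**
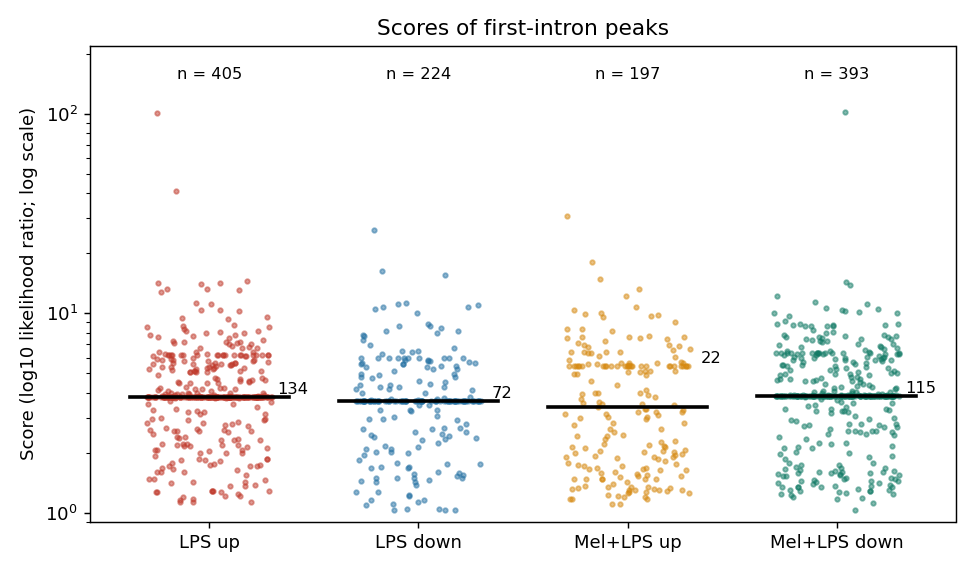
Score of each first-intron peak (y axis, log10 likelihood ratio, log scale) in the 4 tables, with the median as a black line and the number of peaks at the most frequent score at the right of each column. The repeated scores form dense rows of 134, 72, 22 and 115 peaks, and 2 peaks above 100 stand apart, both in Cdh20.

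The highest scores lay in first introns of very different length, from 229 bases in Tdo2 to 329018 bases in Lrp1b. Cdh20, a cadherin of cell adhesion, had the highest score of all members. Its peak at chr1:104833992-104834273, 65093 bases into a first intron of 165058 bases, was listed in LPS up with a score of 101.7 and in Mel+LPS down with a score of 102.8. A second Cdh20 peak, 117347 bases from exon 1, was in Mel+LPS up at 18.1. The next members of LPS up were Ctse, the aspartic protease cathepsin E (41.3), Sec24b, a coat protein of ER export vesicles (14.6), Tra2a, a splicing factor (14.2), and S100a10, the partner of annexin A2 (14.2). The LPS down members were led by Lrp1b, a receptor of the LDL receptor family (26.2). Next came Hsd17b2, the enzyme that oxidizes estradiol to estrone (16.2 and 15.5 in 2 peaks). They were followed by Cmip, a signaling adaptor (11.3), and Zfp978, a zinc finger gene (11.2). The Lrp1b peak lies 231957 bases into its intron and was assigned to Mir6336 by the deposited annotation.

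In Mel+LPS up, the members after Tdo2 and Cdh20 were Grk5, a kinase of G protein-coupled receptors (14.9), Ntm, a neural adhesion protein (13.2), and Sema3e, a secreted guidance molecule (12.2). In Mel+LPS down, those after Cdh20 were Mark2, a kinase of microtubule-associated proteins (14.3), 2610301B20Rik (13.9), Nrf1, a transcription factor of respiratory genes (12.2), and Pes1, a ribosome assembly factor (11.4). Cdh20 was the only host among the 5 highest-scoring members of more than 1 table.

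Both comparisons use the LPS libraries, so opposite changes at a shared place are given side by side and not counted as agreement. Styk1, a kinase-like gene, was in LPS up at 10.4 and in Mel+LPS down at 10.5 over the same 514 bases (chr6:131347668-131348181). The pairs of scores were 9.62 and 10.3 in Zfp58, 9.47 and 10.3 in Rora, a nuclear receptor gene, and 8.65 and 8.78 in Wipf2, an actin regulator. For places in both LPS down and Mel+LPS up, the scores were 5.95 and 5.42 in Gnpda2, an amino sugar deaminase. Zfp978 had 11.2 and 5.06, Sppl3, an intramembrane protease, had 3.65 and 5.42, Ica1 had 3.63 and 5.42, and Zfp981 had 3.25 and 5.65. The Ica1 peak lies 61 bases past exon 1 in both comparisons.

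Some hosts held many peaks. Of 733 hosts, 459 had 1 member over the 4 tables, 178 had 2 and 96 had 3 or more. Ctse had 15, with 7 in LPS up, 7 in Mel+LPS down, 1 in Mel+LPS up and none in LPS down. They covered 4563 to 12279 bases from exon 1 in an intron of 23318 bases. At each of 7 places an LPS up peak lay on a Mel+LPS down peak, with scores of 41.3 and 6.29 at the highest. Zfp978 had 14, in all 4 tables. Synpo2, which encodes an actin-binding protein of smooth muscle, had 13 over 90578 bases, with 4 in LPS up, 5 in LPS down, 2 in Mel+LPS up and 2 in Mel+LPS down.

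Grk5 had 10 members within 5374 bases, 5 in LPS up, 4 in Mel+LPS down and 1 in Mel+LPS up, which had the highest score of the 10. Grk5 lies on chromosome 19, so LPS down peaks could not be seen there. Galnt11, an enzyme that starts O-glycosylation, had 10 within 4530 bases, 5 in LPS up and 5 in Mel+LPS down. Tshz2, a zinc finger transcription factor, had 10 spread over 162146 bases, 4 in LPS down, 1 in LPS up and 5 in Mel+LPS down. Peaks in 1 intron can come from 1 transcript and are not independent of each other.

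**Figure D5:**
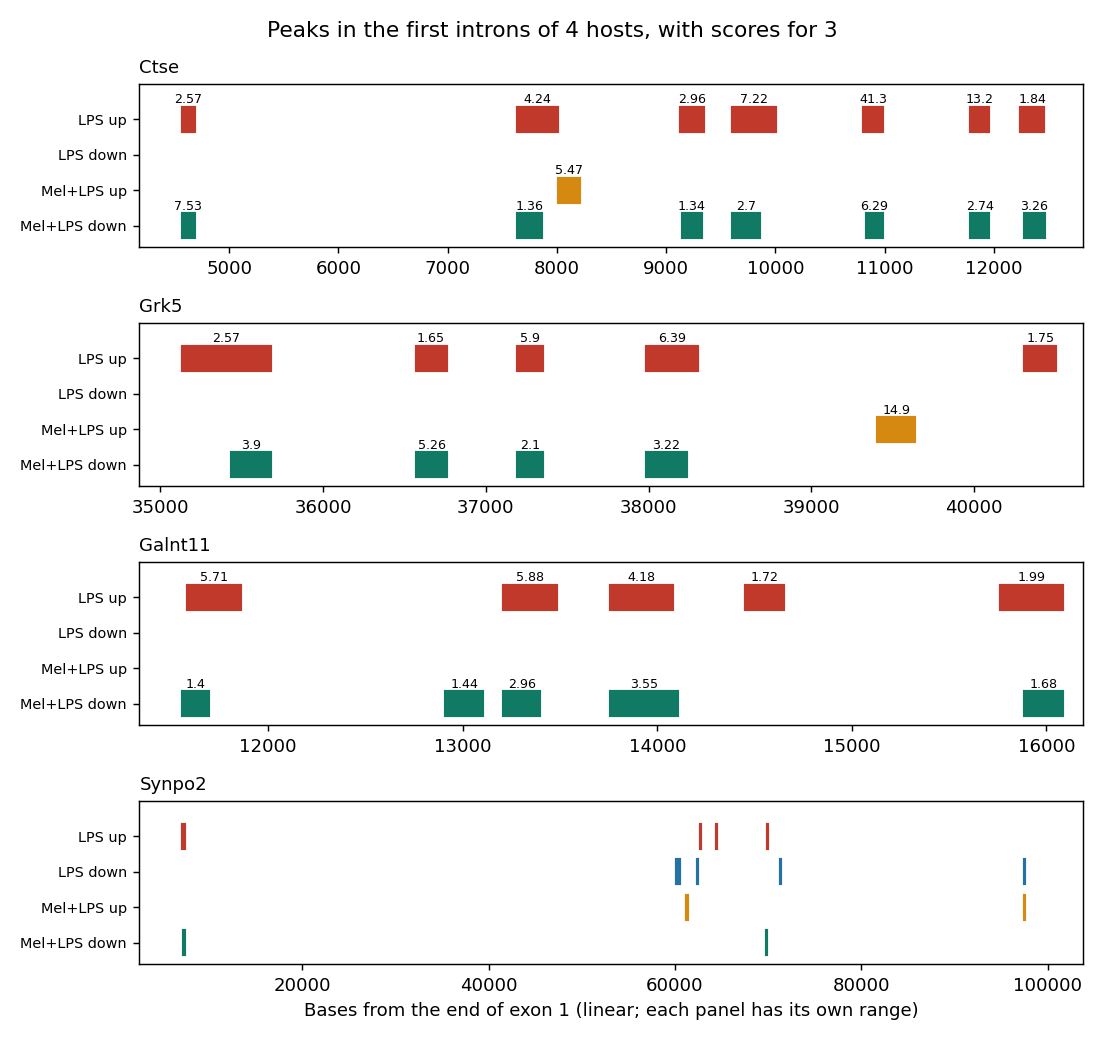
Peaks in the first introns of Ctse, Grk5, Galnt11 and Synpo2, drawn as boxes to scale by bases from the end of exon 1 (x axis, 1 range per panel) in 4 rows for the 4 tables, with the score above each box except in Synpo2. In Ctse, Grk5 and Galnt11 most LPS up boxes stand over Mel+LPS down boxes, while Synpo2 has boxes in every row. The LPS down row is empty in Ctse and Galnt11. It is also empty in Grk5, but Grk5 lies on chromosome 19, for which no LPS down peaks were used.

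Some hosts had peaks in both directions of 1 comparison. In LPS vs Veh on chromosomes 1 to 9, 31 of 347 hosts had members up and down (8.93%, 6.37 to 12.4). In Mel+LPS vs LPS they were 33 of 479 (6.89%, 4.95 to 9.52). Among the assigned genes of all peaks the shares were 20.1% and 18.4%, counted over every peak of a gene. Opposite peaks of 1 host lay apart by a median of 1684 bases in LPS vs Veh and 927 bases in Mel+LPS vs LPS. The nearest were 42 bases apart in Zfp978 and 79 bases apart in Gm52787. In Cdh11, a mesenchymal cadherin, an LPS up peak scored 5.40 and an LPS down peak scored 7.72, with 17421 bases between them.

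Gene lists were read against all genes. Of 21896 RefSeq protein-coding genes, 717 hosted a member, 3.27%. This base includes genes without any peak, and 10288 of the 21896 had a differential peak of any class. Of the lists, 37 of 46 smooth muscle, 44 of 85 adhesion, 54 of 72 splicing and 46 of 61 matrix genes had one. So did 46 of 65 TLR and NF-κB, 42 of 53 receptivity, 65 of 76 chromatin and 51 of 80 autophagy genes. Smooth muscle contraction genes hosted members in 8 of 46 (17.4%) and genes of cadherins, axon guidance and synaptic adhesion in 15 of 85 (17.6%). The share of hosts was higher in each longer class of first intron, from 0.836% of genes under 1000 bases to 18.7% of genes with 100000 bases or more. The median first intron was 15942 bases in the smooth muscle list and 64365 in the adhesion list, against 2924 over all protein-coding genes and 22027 in hosts. Among genes with a first intron of at least 10000 bases, hosts were 8 of 28 in the smooth muscle list (28.6%, 15.3 to 47.1), 13 of 69 in the adhesion list (18.8%, 11.3 to 29.6) and 9.01% (8.26 to 9.83) over all genes. No list was tested, and the part of intron length in these shares was not tested.

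Smooth muscle hosts had members in both comparisons. Cald1, which encodes the actin-binding caldesmon, was in LPS up at 13.3, 1757 bases past exon 1, and in Mel+LPS down at 6.40, over overlapping bases. Kcnma1, the BK potassium channel, had 3.83 and 3.90 at 1 place, and Ppp1r12b, a subunit of myosin phosphatase, had 3.78 and 3.85. Lmod1, an actin nucleator of smooth muscle, was in LPS down at 5.93. The adhesion list was led by Cdh20, Ntm and Sema3e, followed by Cdh11 and by Cdh13, which was in LPS up at 7.17 and in Mel+LPS down at 7.28 over the same 200 bases.

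Splicing factors hosted members in 5 of 72 (6.94%). Tra2a was in LPS up at 14.2 and in Mel+LPS down at 7.32, and another Tra2a peak was in Mel+LPS up at 3.004. Rbfox2 was in Mel+LPS up at 7.06 and, at another place, in Mel+LPS down at 2.16. Sf3b1, a U2 component, had 6.19 in LPS up and 6.28 in Mel+LPS down, and Celf2 had 2 LPS up peaks at 3.78. Extracellular matrix and adhesion genes hosted members in 4 of 61 (6.56%): Itgb1, an integrin chain, at 5.90 in Mel+LPS down, Lama2, a laminin chain, at 5.84 in LPS up and 5.72 in Mel+LPS down, Hspg2 (perlecan) and Col5a2.

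Of 65 genes of TLR and NF-κB signaling, which carry the response to LPS, 4 hosted a member (6.15%). Besides Tnfaip3 and Il1a, they were Birc3, a ubiquitin ligase of the TNF pathway, in LPS down at 5.28, and Traf6, the ubiquitin ligase below TLR receptors, in Mel+LPS down at 3.85. None of 46 interferon response genes, none of 25 m6A writers, erasers and readers and none of 14 genes on a list of qPCR targets in this uterus hosted a member. The share over all RefSeq protein-coding genes was 3.27%, and in lists this small such counts cannot be told apart from it. Their median first introns were 3432, 3837 and 3561 bases, against 22027 in hosts. A differential peak of any class was found for 33, 20 and 11 genes of these lists. Of these lists, 8, 5 and 3 genes hosted a peak in a later intron.

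Receptivity and decidua genes hosted members in 2 of 53 (3.77%), with Foxo1, a transcription factor of decidualization, in LPS down at 2.22 and Smad1, a BMP signal carrier, at 3.78 in LPS up and 3.85 in Mel+LPS down. Chromatin modifiers did so in 4 of 76 (5.26%), among them Tet2, the DNA demethylating enzyme, with 3.78 in LPS up and 3.85 in Mel+LPS down, Jmjd1c and Setd5. The scores of Tet2, Jmjd1c and Setd5 are the repeated scores of their tables. So are those of Smad1, Il1a, Traf6, Celf2, Ppp1r12b and Ica1, and those of Gnpda2 and Sppl3 in Mel+LPS up. The score of Ambra1 below is also shared by other Mel+LPS down members. Autophagy, mTOR and apoptosis genes did so in 4 of 80 (5.00%), led by Ambra1, a regulator of autophagy, in Mel+LPS down at 6.29, and Uvrag, of the same pathway, in LPS down at 5.61.

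The deposited annotation assigned 980 of the 1219 members (80.4%) to their host, and the others to another gene whose start site is nearer. The median distance to the start of the assigned gene was 7644 bases in LPS up, 7294 in LPS down, 7894 in Mel+LPS down and 3014 in Mel+LPS up. Members without a placed intron were 199, of which 34 lie on scaffolds outside the chromosomes. Scaffold sequence can be a near-identical copy of a chromosomal place, so these positions are uncertain. Hosts with a single intron held 89 members.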

How the data were processed

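Uterine RNA of Veh, LPS and Mel+LPS mice was measured by m6A-seq (3 input and 3 immunoprecipitated libraries each). Per the paper's methods and the submitters' processing notes, the authors used Fastp for trimming, STAR (2.5.2a, mm10) for alignment, exomePeak2 for peak calling, MACS2 for the difference between treatments and ChIPseeker (1.22.1) for annotation. The deposited tables give positions, other annotation and 1 score per peak, taken as the log10 likelihood ratio of the difference. How replicates were combined is not stated, and the tables give no depth. LPS down ends within chromosome 10, so its chromosomes 1 to 9 were used.

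Members and gene lists were chosen with earlier results of these data known. Named genes were, by rule, the 5 highest-scoring members per table and the 5 hosts with the most members. They were also up to 4 hosts per list and the 5 highest pairs of up and down members at overlapping places. Genes with near-exon peaks, Cdh11 and Gm52787 were named after their values were seen. Members were placed on the shortest GENCODE M21 first intron of the host that holds the peak centre, matched by symbol on GRCm38. Distances count the intron bases between exon 1 and the peak. List shares use RefSeq protein-coding genes (GRCm38.p6), with or without a peak, although genes with a peak had been planned as the base. Shares have Wilson 95% intervals, medians order-statistic intervals and motif ratios exact binomial intervals, all of counting error only. No genome sequence was used, so DRACH and GGAC were counted in peaks inside a GENCODE exon and compared with the rest of that exon in place of flanking genome. Alternatives were score minimums of 3 and 6, merging, 1 peak per host, NM_ transcripts, other denominators, other distance limits and introns, and omission of exon-centred, near-exon, repeated-score, scaffold and opposite-strand exon peaks. The counting steps were tested on simulated data. Python 3.11.15, numpy 2.4.6, pandas 2.3.3, scipy 1.17.1 and matplotlib 3.10.9 were used.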

Additional observations from a re-analysis of the deposited data

How the results depend on the processing

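No paired analysis was possible because the tables hold 1 score per peak and none per replicate, and for the same reason no replicate could be left out. Of 112 alternatives to 22 results, 80 stayed inside the interval of the value as reported. This count is not a measure of stability. It includes DRACH on the opposite strand and in moved peaks, which are controls for the motif ratio. It also includes median scores that sit at a repeated score, with an interval of no width. The share of peaks in first introns, in the order LPS up, LPS down, Mel+LPS up and Mel+LPS down, became 5.36%, 5.64%, 2.503% and 6.35% at a score of at least 3, and 2.05%, 2.01%, 0.968% and 2.62% with NM_ transcripts only. At a score of at least 6 it was 4.21% in LPS up, 2.47% in Mel+LPS up and 6.27% in Mel+LPS down. Of intron peaks alone it was 23.3%, 23.3%, 14.5% and 24.5%. The share of members up in LPS vs Veh was 63.9% at a score of at least 6 (72 members), where all peaks gave 53.6%. In Mel+LPS vs LPS it was 27.0% at a score of at least 3, where all peaks gave 48.4%. It was 21.6% without near-exon or unplaced members, 38.6% without the repeated scores and 52.0% with distance classes weighted as in later introns. The median score of Mel+LPS up members was 5.42 without near-exon or unplaced members. The DRACH ratio was 0.870 in LPS down and 0.807 in Mel+LPS down on the opposite strand, 0.857 in LPS down at a score of at least 3 and 0.882 in Mel+LPS up for GGAC. The near-exon share was 11.7% in LPS up and 8.11% in Mel+LPS down at a limit of 500 bases, and 3.003% in Mel+LPS down at 50 bases. At a score of at least 3 it was 4.83% in LPS down, 27.5% in Mel+LPS up and 3.07% in Mel+LPS down. The share on another exon was 6.17% in LPS down at a score of at least 3. The causes were not tested. Depth limits are unknown, since no reads or counts were used.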
